A study of Zea mays subsp. mexicana with 6 samples.

Results

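In seedlings of the teosinte Zea mays subsp. mexicana, 288 of the 184280 assembled unigenes had a much higher mean level in drought than in control. Their mean level in cold stayed near that of control, and single libraries could depart from this. These 288 unigenes, the members, were chosen by their measured values. A member had a mean of at least 1 FPKM (fragments mapped per kilobase of sequence, scaled to the library's total) over the 6 libraries. Its mean log2(FPKM + 1) was at least 2 higher in drought than in control, and its cold minus control difference lay strictly between -1 and 1. Both of its drought values also had to exceed both of its control values. This held for 300 unigenes, of which 12 were left out by name because the study's text discusses them or, for a dehydrin and a late embryogenesis abundant (LEA) unigene, because the rule excludes them. The 288 members are 0.743% of the 38769 unigenes with a mean of at least 1 FPKM. The drought minus control and cold minus control values of members, and the drought minus cold values that follow from them, therefore describe the choice and are given with no test as support.

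All samples came from 13-day-old seedlings of cultivar 8493, with root, stem and leaf tissue of at least 3 seedlings pooled in each. The 2 drought samples were kept for 3 h in Hoagland nutrient solution with 20% PEG2000, the 2 cold samples were held at 4°C for 12 h, and the 2 control samples received neither stress and stayed in the 25°C growth chamber. The seedlings had been raised in soil substrate, and no control in Hoagland solution without PEG2000 is described, so the change of medium and the osmotic stress cannot be told apart. The stresses also differed in length, and each library is 1 pool, so an organ or cell type that takes a larger share of the tissue and more RNA per cell cannot be told apart either.

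Polyethylene glycol lowers the water potential around the root, and plants answer such osmotic stress partly through abscisic acid (ABA), a hormone made from carotenoids that closes stomata and switches on stress genes. Among the products of these genes are LEA proteins and dehydrins, hydrophilic proteins that accumulate in drying seeds and water-stressed tissue, and enzymes that move carbon between starch, sucrose, organic acids and small osmolytes. Cold acts on part of the same network and on pathways of its own. A unigene is the longest transcript of a gene in the Trinity assembly. Unigenes whose identifiers differ only in the final g number (c62592_g1 and c62592_g2) belong to the same assembly component, so they can be near-identical copies, alleles or fragments of a gene that divide its reads.

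The libraries were alike in size on the FPKM scale, with sums over all unigenes between 967000 and 993400. The table holds no counts. An estimate of relative depth from its low values did not follow the order of the read totals in the study's supplement, so no depth is read from it. On log2(FPKM + 1), Pearson's r between replicates over the 38769 unigenes was 0.951 in drought, 0.950 in cold and 0.956 in control, a description across unigenes that share libraries. The summed FPKM of 37 leaf marker unigenes (photosynthetic proteins) was 13270 and 13240 in drought, against 20050 and 24690 in cold and 20700 and 19830 in control. That of 12 root marker unigenes was 33.0 and 57.0 in drought, 77.7 and 114.8 in cold, and 35.0 and 70.5 in control. Between 7 and 11 of the leaf markers and 3 or 4 of the root markers were listed at 0 in a library. The leaf marker sum was thus lower in both drought libraries than in any other, and its part in the members' values was not tested. None of the 153 unigenes with an algal best hit, a sign of other organisms in the sample, was a member, but only 10 members have an entry in the annotation used, so for the other 278 this could not be seen.

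Averaged over replicates, the members' summed FPKM in drought was 8.37 times that in cold and 9.14 times that in control. By library the sum was 14740 and 13240 in drought, 1697 and 1648 in cold, and 1571 and 1491 in control. These sums are 1.52% and 1.37% of all FPKM in drought, 0.171% and 0.168% in cold, and 0.162% and 0.154% in control. The 10 most abundant members made up 36.8% and 38.1% of the members' sum in drought, 35.3% and 36.0% in cold, and 48.4% and 43.8% in control. The median member had 17.8 and 15.3 FPKM in drought, 1.35 and 1.15 FPKM in cold, and 0.885 and 0.935 FPKM in control. Over all 38769 unigenes the median was 6.10 and 6.25 FPKM in drought, 5.37 and 5.15 FPKM in cold, and 5.79 and 5.89 FPKM in control.

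**Figure D1:**
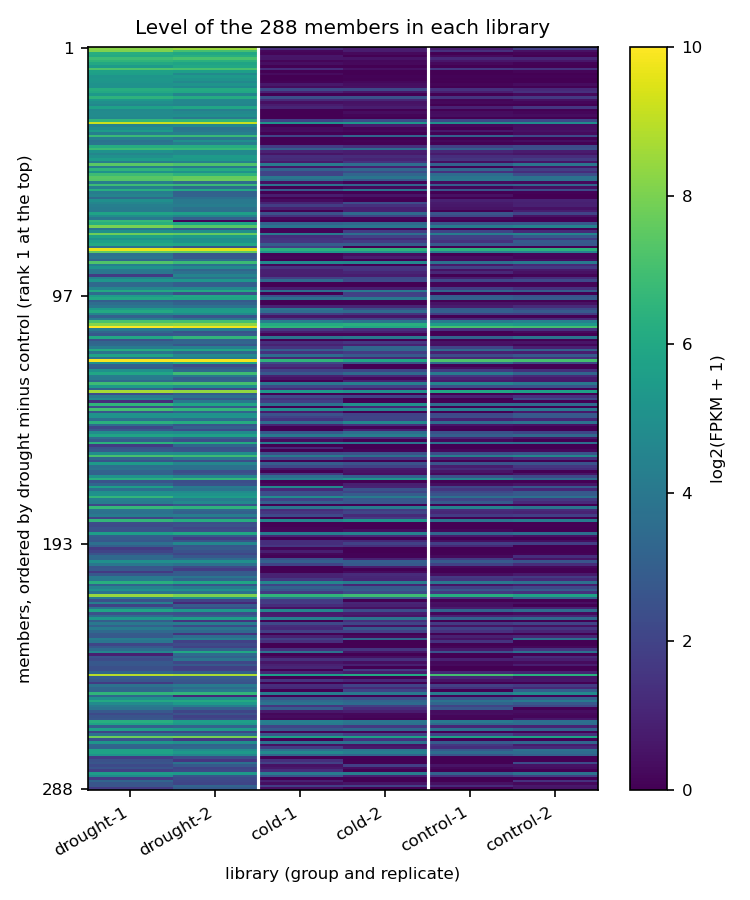
Each row is 1 of the 288 members, ordered by drought minus control with rank 1 at the top, and each column is a library; colour gives log2(FPKM + 1). The 2 drought columns are brighter than the 4 others along nearly the whole list, and bright rows at many ranks mark abundant members.

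On the log2(FPKM + 1) scale the median drought minus control difference of the members was 2.60, and the range was 2.01 to 7.05. The median cold minus control difference was 0.10, with quartiles at -0.12 and 0.63. Over all 38769 unigenes the median was 0.01 for drought minus control and -0.18 for cold minus control. Scaling the libraries by the median of ratios moved the cold median of all unigenes to 0.004, so the cold differences are read against a background near -0.18 as deposited. Most members were modest: 195 had a drought difference from 2 to below 3, 52 from 3 to below 4, 28 from 4 to below 5, and 13 of 5 or more. The pseudocount of 1 shrinks the change of low unigenes. Among the 142 members with a mean control level of at least 1 FPKM, the ratio of mean FPKM in drought over control ranged from 3.06 to 198 around a median of 7.17, and it was at least 10 in 42. The ratio of cold over control in the same 142 ranged from 0.276 to 2.85 around a median of 1.25.

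**Figure D2:**
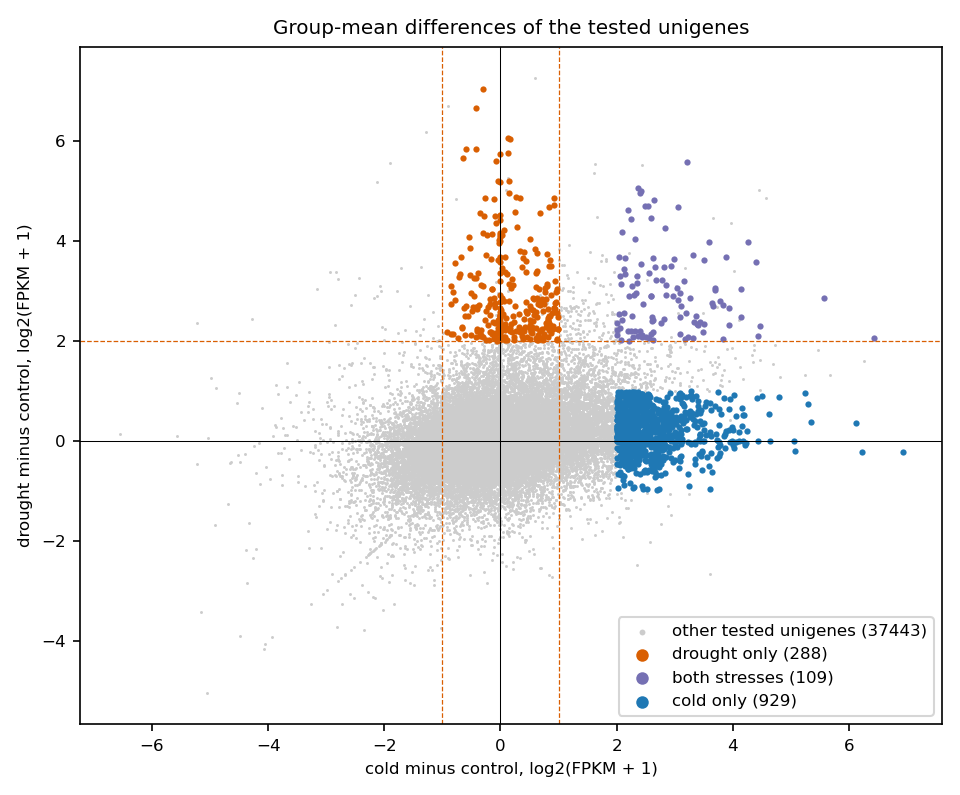
Each point is 1 of the 38769 unigenes, with the cold minus control difference on the horizontal axis and the drought minus control difference on the vertical axis, both of mean log2(FPKM + 1). The dashed lines are the limits of the choice; the 288 members lie in the band above 2 and between -1 and 1. The 109 unigenes higher in both stresses and the 929 higher in cold only are those whose stress and control libraries also do not overlap and that the study's text does not name; grey points in these fields miss one of these conditions.

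The moderated test of limma was fitted to log2(FPKM + 1) of all 6 libraries. Unigenes were called at a log2 difference of at least 2 if p, adjusted after Benjamini and Hochberg, was under 0.005. It called 119 of the 288 members higher in drought than in control, where 0.725% of all tested unigenes were called, and 159 higher in drought than in cold, where 1.87% were. Because the choice used these differences, neither count is support. The 119 show only how many members had a difference large enough, for the spread between replicates, to pass. Against cold the choice fixed only a difference above 1, so the 159 also depend on how many members reached 2. At an adjusted p under 0.05 limma called 256 members in drought against control, and 32 members missed even that. Shares of all tested unigenes at this and other looser limits were not computed, so counts at them describe the chosen members only. With any 1 of the 6 libraries left out, limma called 0 members against control at 0.005, with 241 to 276 at an unadjusted p under 0.05 and 126 to 231 at an adjusted p under 0.05. The smallest p of an exact permutation test of 2 against 2 libraries is 0.333, so such a test of a single unigene could not pass 0.05.

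The drought libraries were close to each other for most members and far apart for a few. The median gap between the 2 drought values was 0.36 log2 units in members, against 0.23 in all tested unigenes, and Pearson's r between them was 0.902 over the members. In 200 members the gap was under 1.5-fold on this scale, and in 218 each drought library on its own stood at least 2 above the control mean. Drought-1 was the higher library in 195 members (67.7%) and in 43.4% of all tested unigenes, and leaving out drought-2 raised the number of unigenes that met the rule to 467. Leaving out drought-1 gave 341.

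For 7 members the gap was over 2 log2 units, and in these the group mean rested largely on 1 library. The widest was c85028_g1, with 99.2 and 0.07 FPKM in drought, listed at 0 in both cold and both control libraries. Its limma adjusted p was 0.384 in drought against control. c40994_g1 had 17.8 and 1.20 FPKM in drought, 2.46 and 1.09 FPKM in cold, and 0.38 and 0.34 FPKM in control, so its lower drought library lay below the higher cold one. c57880_g1 was split the other way, with 1.43 and 15.0 FPKM in drought, 2.64 and 0 FPKM in cold, and 0 in both control libraries. In these 3 members, none of which has a name in the annotation used, the drought level is known no better than the difference between its libraries.

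**Figure D3:**
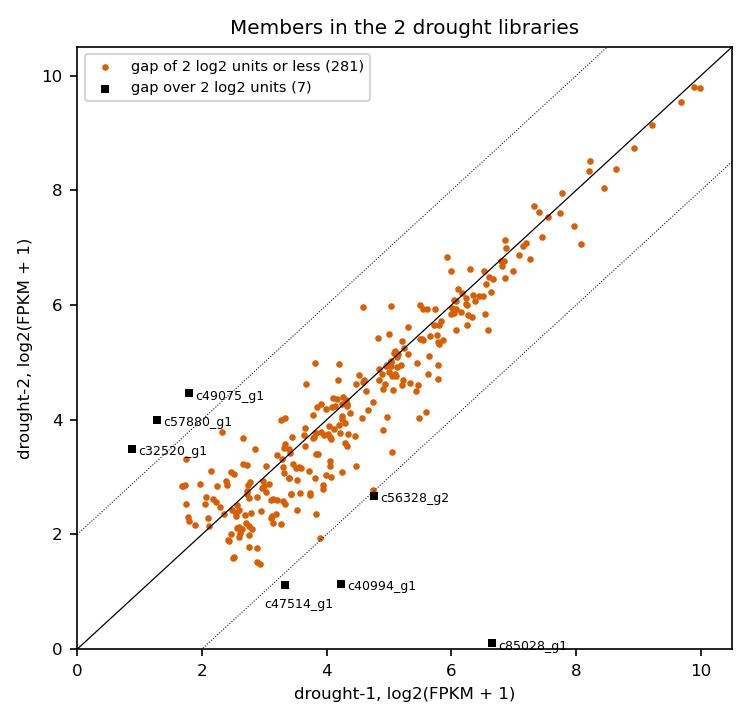
Each point is a member, with log2(FPKM + 1) in drought-1 on the horizontal axis and in drought-2 on the vertical axis; the solid line marks equal values and the dotted lines a gap of 2. Of the 288 members 281 lie within the dotted lines and 7 (black squares, named) outside, and c85028_g1 is the farthest.

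Members started from very different levels. The mean control level was under 0.1 FPKM in 66, from 0.1 to below 1 in 80, from 1 to below 10 in 105 and 10 or more in 37. The median drought minus control difference hardly moved over these classes, at 2.58, 2.70, 2.57 and 2.63, as the common threshold of 2 fixes most of it. In drought, 41 members were under 5 FPKM, 118 from 5 to below 20, 101 from 20 to below 100, and 28 at 100 or more. Taken singly, each drought library had 287 of 288 members at 1 FPKM or more, with a different member below it in each. The cold libraries had 160 and 153 such members and the control libraries 137 and 141.

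Some members were seen in drought only. Both control libraries listed 48 members at 0 and both cold libraries listed 33 at 0, and 23 members were at 0 in all 4 of these libraries. Shares of all tested unigenes at 0 were not computed. A unigene at 0 in all 4 could meet the mean of at least 1 FPKM only through its drought values. The choice therefore set the lower end of its drought level. These 23, which include c85028_g1 with 0.07 FPKM in drought-2, had mean drought levels from 3.10 to 53.8 FPKM with a median of 5.42, and 7 of them reached 10 FPKM. The highest was c62592_g1, with 44.3 and 63.2 FPKM in drought. c52302_g1 followed the same pattern, with 25.9 and 18.9 FPKM in drought, and so did c50146_g2, with 24.4 and 17.1 FPKM in drought. No fold change is given for these, since a unigene listed at 0 has no measured level to divide by.

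The widest difference belonged to c41217_g1, which has no name in the annotation used. It had 297 and 362 FPKM in drought, 1.32 and 0.76 FPKM in cold, and 0.72 and 2.61 FPKM in control. Its drought minus control difference was 7.05 ± 0.36 (SE), or 198 times the mean control FPKM, and its cold and control values overlapped. c44217_g1 came next with a difference of 6.67 ± 0.46 (SE). It had 269 and 133 FPKM in drought, 0.15 and 0.68 FPKM in cold, and 1.58 and 0.35 FPKM in control, with a gap of 1.01 log2 units between its drought libraries. c50932_g2 had 115 and 139 FPKM in drought, 0.48 and 0.45 FPKM in cold, and 1.23 and 1.18 FPKM in control. In c50932_g2 the cold libraries lay below both control libraries, with a cold minus control difference of -0.59. c59827_g3 was similar, with 145 and 135 FPKM in drought, 1.32 and 0.37 FPKM in cold, and 1.96 and 1.61 FPKM in control. Of the 12 members with the widest differences, only c50227_g1 and c52001_g2 have a name.

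The most abundant members were expressed well in every library and were 4.38 to 20.2 times higher in drought than in control. c61064_g8 had 1009 and 883 FPKM in drought, 91.8 and 64.3 FPKM in cold, and 137 and 128 FPKM in control. c58481_g4 had almost the same levels, with 951 and 897 FPKM in drought, 92.3 and 61.8 FPKM in cold, and 145 and 130 FPKM in control, although it belongs to another component. c61064_g5 had 400 and 331 FPKM in drought, 41.3 and 32.3 FPKM in cold, and 63.4 and 50.7 FPKM in control. In these 3 unigenes and in c48757_g1 (488 and 426 FPKM in drought, 48.5 and 64.7 FPKM in cold, 127 and 81.4 FPKM in control) both cold libraries lay below both control libraries. The mean ratio of cold over control in them was 0.542 to 0.645. The other abundant members did not show this. c55078_g1 had 824 and 748 FPKM in drought, 80.5 and 86.4 FPKM in cold, and 84.0 and 84.1 FPKM in control. c55152_g1 had the widest difference of the 6, with 592 and 563 FPKM in drought, 33.8 and 36.5 FPKM in cold, and 29.5 and 27.8 FPKM in control, a ratio of 20.2 in drought over control.

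**Figure D4:**
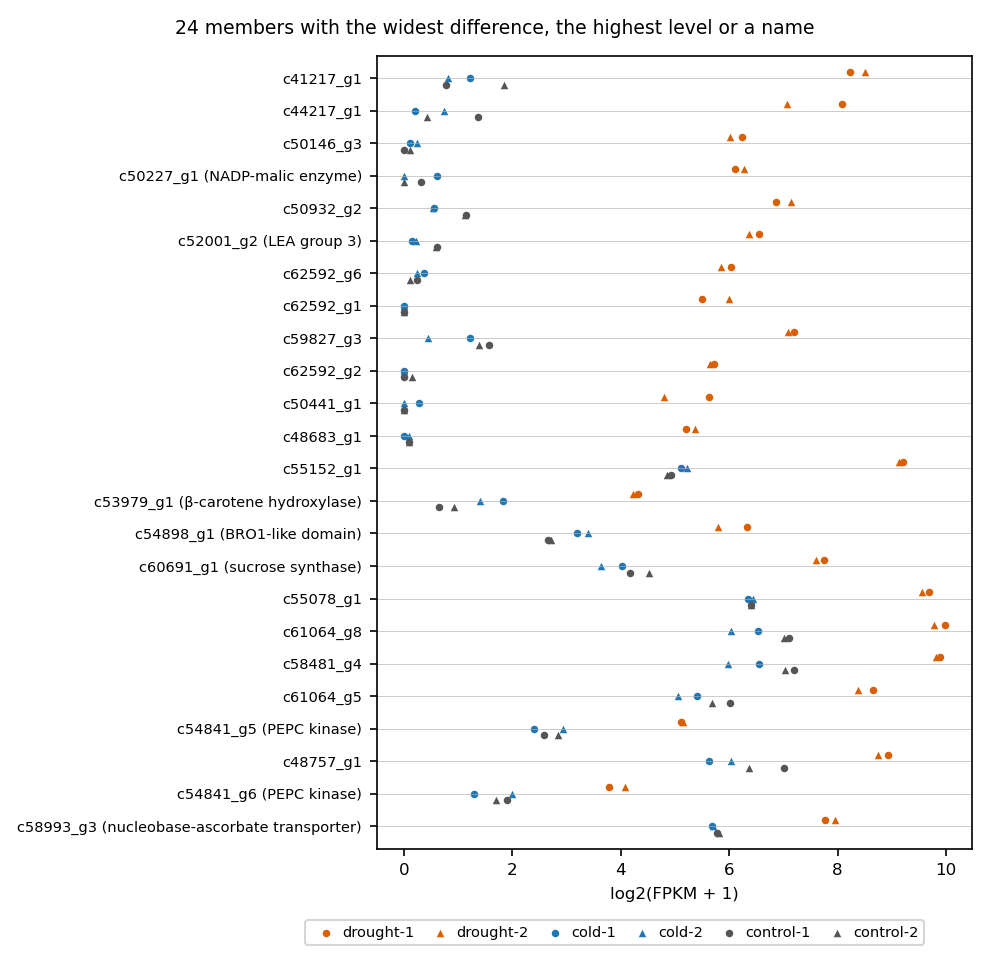
Each row is a member, ordered by drought minus control from the top, and the horizontal axis is log2(FPKM + 1); orange points are drought, blue cold and grey control libraries, with circles for replicate 1 and triangles for replicate 2. In all 24 rows the orange points lie to the right of the blue and grey ones.

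Only 10 members have an entry in the parts of the annotation used here, which cover 6057 of the 184280 unigenes, and 8 of these entries name a protein. The names are those of the closest hit in maize or Arabidopsis, and 3 of the 6 maize hits matched an entry of the RefSeq annotation of maize B73. Of these 8 members, 7 were called by limma in drought against control and the eighth, c54841_g6, had an adjusted p of 0.0115. They are described here by what their proteins do.

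Carbon metabolism was represented by 4 of them. c50227_g1 hits NADP malic enzyme4; NADP-malic enzymes split malate into pyruvate and CO2 and yield NADPH, and 1 form of them supplies CO2 in C4 leaves. It had 68.1 and 76.6 FPKM in drought, 0.54 and 0 FPKM in cold, and 0.24 and 0 FPKM in control, a difference of 6.04 ± 0.27 (SE) from control. Another unigene of its component, c50227_g2, is a member too, with 14.0 and 18.4 FPKM in drought and 0 in the 4 other libraries. Sucrose synthase cleaves sucrose into fructose and UDP-glucose, and its unigene c60691_g1 had 214 and 194 FPKM in drought, 15.4 and 11.4 FPKM in cold, and 17.1 and 21.9 FPKM in control. The difference was 3.33 ± 0.18 (SE), and both cold values were below both control values.

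The remaining 2 of these 4, c54841_g5 and c54841_g6, share a component and hit phosphoenolpyruvate carboxylase kinase 1, the enzyme that phosphorylates phosphoenolpyruvate carboxylase and makes it less sensitive to malate. c54841_g5 had 33.6 and 34.5 FPKM in drought, 4.26 and 6.66 FPKM in cold, and 4.99 and 6.20 FPKM in control. c54841_g6 was lower throughout, with 12.7 and 16.0 FPKM in drought, 1.45 and 3.01 FPKM in cold, and 2.73 and 2.24 FPKM in control. Cold and control overlapped in both unigenes. Another unigene of the component, c54841_g3, hits phosphoenolpyruvate carboxylase kinase 2 and had the opposite pattern. It had 23.7 and 28.3 FPKM in drought, 110 and 102 FPKM in cold, and 20.3 and 18.4 FPKM in control, and in limma its cold minus control difference was 2.39 (adjusted p = 0.000551) and its drought minus control difference 0.40 (adjusted p = 0.134). This neighbour was picked after its values were seen.

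The carotenoid branch that leads towards ABA was represented by c53979_g1, which hits beta-carotene hydroxylase, the enzyme that turns beta-carotene into zeaxanthin. It had 19.0 and 17.8 FPKM in drought, 2.55 and 1.66 FPKM in cold, and 0.56 and 0.89 FPKM in control. Its drought minus control difference was 3.50 ± 0.23 (SE), and the cold libraries stood above both control libraries with a difference of 0.84. Of the protective proteins, c52001_g2 hits a group 3 LEA protein. It had 92.5 and 81.3 FPKM in drought, 0.11 and 0.17 FPKM in cold, and 0.53 and 0.52 FPKM in control, a difference of 5.85 ± 0.17 (SE) from control, with both cold values below both control values.

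The last 2 named members concern membranes. c58993_g3 hits nucleobase-ascorbate transporter 6 of Arabidopsis, from a family of carriers for purine and pyrimidine bases that is related to ascorbate transporters of animals. It had 217 and 246 FPKM in drought, 50.3 and 50.8 FPKM in cold, and 53.7 and 55.1 FPKM in control. With a difference of 2.07 ± 0.10 (SE) it lay just past the threshold, and its standard error was among the smallest of the named members. c58993_g1 and c58993_g4, of the same component and with the same name, were not higher in drought. Their drought minus control differences were -0.89 and -0.39, with limma adjusted p of 0.237 and 0.374. c54898_g1 hits an Arabidopsis protein with a BRO1-like domain, a domain known from proteins that sort cargo at endosomes. It had 79.0 and 54.2 FPKM in drought, 8.18 and 9.48 FPKM in cold, and 5.33 and 5.54 FPKM in control, a difference of 3.37 ± 0.20 (SE).

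Some members shared an assembly component, so the 288 unigenes cannot be counted as separate genes. They fell into 254 components, of which 225 held 1 member, 24 held 2 and 5 held 3. In 23 of the 29 components with 2 or more members the drought minus control differences lay within 1 of each other, with a median spread of 0.41. The choice favoured this, since 67.7% of all members had a difference from 2 to below 3. Whether members of a component were closer than other members was not tested. c57450_g4 and c57450_g8 had the same FPKM in all 6 libraries (9.57 and 6.87 in drought, 0 in both cold libraries, 0.11 and 0.10 in control), so the members show 287 distinct profiles. The share of unigenes that have a companion from the same set in their component was 21.9% in members, 14.7% in the 109 unigenes higher in both stresses and 15.3% in the 929 higher in cold only. Over all 38769 tested unigenes it was 55.7%. Another tested unigene of any kind was in the component of 55.6% of members and 55.7% of all tested unigenes. These shares depend on the size of each set and were not tested.

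In the 5 components with 3 members, the members were alike in some and differed in others. In c62592 the members g1, g2 and g6 were nearly silent outside drought. c62592_g2 had 51.7 and 49.5 FPKM in drought, 0 in both cold libraries, and 0 and 0.11 FPKM in control, and c62592_g6 had 64.7 and 57.0 FPKM in drought, 0.29 and 0.18 FPKM in cold, and 0.19 and 0.08 FPKM in control. In c50146 the members differed in level, from 74.2 and 63.6 FPKM in drought in c50146_g3 to 18.7 and 14.5 FPKM in c50146_g1, and none passed 0.19 FPKM in any cold or control library. In c54684 all 3 members were expressed in every library. c54684_g4 had 175 and 145 FPKM in drought, 17.0 and 10.8 FPKM in cold, and 7.78 and 14.1 FPKM in control. In c55078 the levels lay far apart, since c55078_g3 had 6.39 and 5.26 FPKM in drought, against 824 and 748 FPKM in c55078_g1. In c52062 the drought minus control differences of the members ran from 2.60 to 4.00. The widest was that of c52062_g1, which had 23.2 and 24.9 FPKM in drought, 0.49 and 0.64 FPKM in cold, and 0.67 and 0.47 FPKM in control.

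The other tested unigenes of these components mostly did not follow the members. There were 261 of them, in 116 of the 254 components, and their median drought minus control difference was 0.21, against 0.01 over all tested unigenes. A difference of 2 or more in drought was seen in 20 of the 261 (7.66%, against 1.60% of all tested unigenes) and one from 1 to below 2 in 43 (16.5%, against 5.29%). In 189 (72.4%) the difference lay between -1 and 1. Cold minus control was 2 or more in 11 (4.22%, against 3.38%). The rule itself took drought-only unigenes out of this set, so the shares are a description.

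In some components drought-only members stood beside unigenes with another cold pattern, higher or lower than in control; those named here were picked after their values were seen. In c62592, the neighbours g3 and g5 hit beta-amylase, an enzyme family that releases maltose from starch and includes inactive members. c62592_g3 had 169 and 145 FPKM in drought, 765 and 622 FPKM in cold, and 92.9 and 70.6 FPKM in control, with a cold minus control difference of 3.07 in limma (adjusted p = 0.000594). c62592_g5 had 286 and 232 FPKM in drought, 76.7 and 68.3 FPKM in cold, and 20.1 and 19.3 FPKM in control, so it was higher in both stresses and more so in drought. The members of c62592 carry no name of their own here. In c52482, the neighbours g3 and g6 are given as protein phosphatase 2C 3; phosphatases of this type hold back ABA signalling when the hormone is absent. c52482_g6 had 227 and 169 FPKM in drought, 138 and 125 FPKM in cold, and 4.44 and 5.70 FPKM in control, whereas the member c52482_g4 had 9.73 and 5.51 FPKM in drought, 0.08 and 0.08 FPKM in cold, and 0.18 and 1.50 FPKM in control. In c54684, the neighbour g2 hits heat shock factor protein 7, a transcription factor of the heat response. It had 6.46 and 4.63 FPKM in drought, 0.05 and 0.10 FPKM in cold, and 3.13 and 2.62 FPKM in control, so it was near 0 in cold while the members of its component were not.

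**Figure D5:**
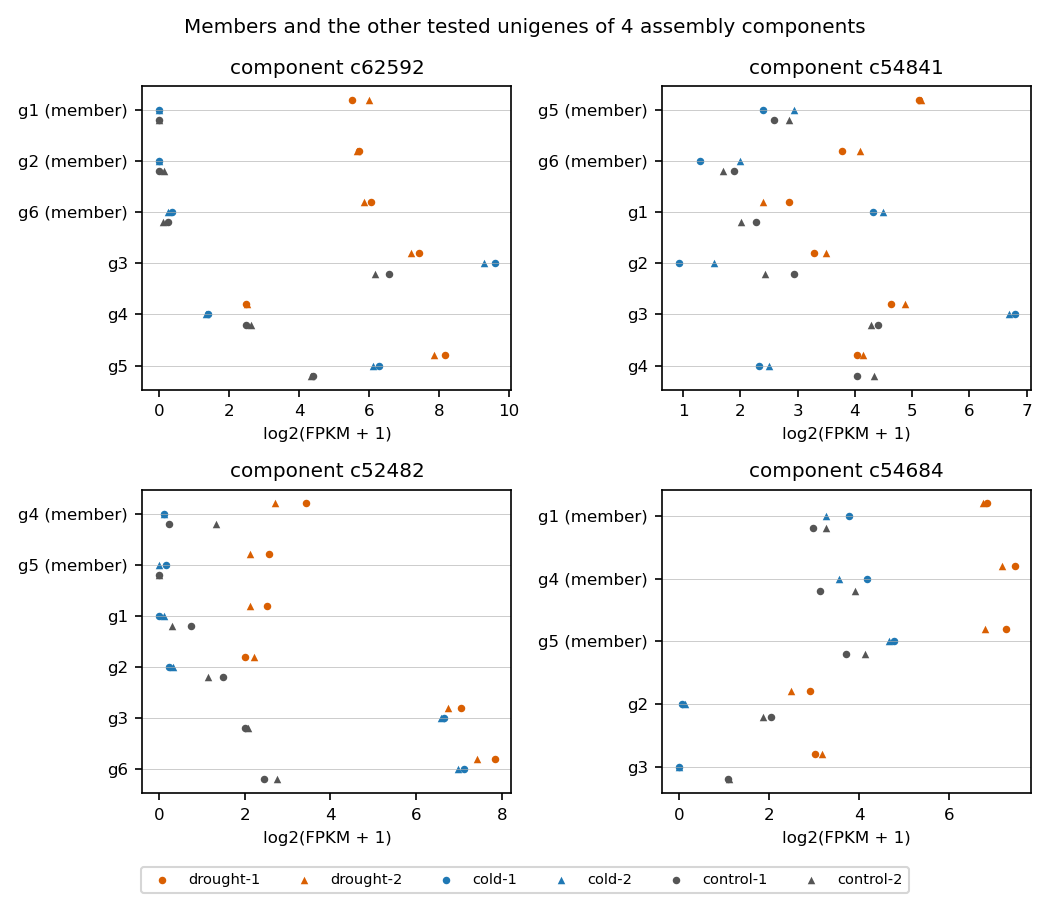
Each panel is 1 assembly component with its members and its other tested unigenes, and the horizontal axis is log2(FPKM + 1); orange, blue and grey are drought, cold and control libraries, with circles for replicate 1 and triangles for replicate 2. In c62592 and c54841 the unigene g3 is highest in cold, while the members are highest in drought.

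The rule bounded the cold differences of the members, and within these bounds they varied. Both cold libraries lay above both control libraries in 89 members (30.9%, against 28.1% of all tested unigenes) and below them in 47 (16.3%, against 43.8%). The 48 members listed at 0 in both control libraries could not lie below them. A mean control level under 0.1 FPKM was found in 22.9% of members and 1.865% of all tested unigenes. The part of such low levels in the shares above and below control was not tested. With no fold required and an adjusted p under 0.05, limma called 26 members higher in cold than in control, where 14.8% of all tested unigenes were called, and 8 lower, where 22.4% were. No member could reach the fold threshold of 2 in cold, so 0 were called at it, while 58 had an unadjusted p under 0.05 in limma. The share of all tested unigenes at that unadjusted limit was not computed. It cannot be smaller than the adjusted shares of 14.8% and 22.4%, so the 58 are no result about members. c61573_g3 was the member nearest to the upper limit. It had 32.5 and 22.0 FPKM in drought, 10.8 and 7.43 FPKM in cold, and 4.62 and 3.44 FPKM in control, a cold minus control difference of 0.995. c55921_g3 followed at 0.994, with 19.8 and 16.4 FPKM in drought, 8.20 and 5.86 FPKM in cold, and 2.65 and 3.36 FPKM in control. Both were intermediate in cold, with no overlap between groups. Near the lower limit, c32149_g1 had 23.0 and 61.6 FPKM in drought, 12.8 and 0.49 FPKM in cold, and 4.68 and 11.8 FPKM in control, so its difference of -0.91 rested on cold-2. In 63 members at least 1 cold library was more than 1 away from the control mean.

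The rule put the drought mean above the cold mean in every member, by more than 1. The drought minus cold difference had a median of 2.45 and ranged from 1.05 to 7.35. Both drought libraries lay above both cold libraries in 285 of 288 members, against 43.9% of all tested unigenes. The rule favoured this count without fixing it. Above both control libraries, where the rule required it of every member, the share of all tested unigenes was 27.8%. The exceptions against cold were c57880_g1, c40994_g1 and c60424_g4. The last had 47.5 and 16.6 FPKM in drought, 24.1 and 1.0 FPKM in cold, and 3.23 and 5.79 FPKM in control, with a wide gap in both stresses.

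The limits of the choice cut through continuous values. Just inside the drought limit were c61925_g2 at 2.01, c18739_g1 at 2.01 and c57291_g1 at 2.02. Just outside it were c58993_g2 at 1.998, c46586_g2 at 1.996 and c58174_g1 at 1.993. c58993_g2 is in the component of the transporter unigene c58993_g3 and had 20.6 and 20.6 FPKM in drought, 5.41 and 6.22 FPKM in cold, and 4.69 and 4.13 FPKM in control. On the cold side, c58175_g1 and c50486_g1 missed the upper limit at 1.01 each, and c40996_g1 and c55416_g1 missed the lower one at -1.07 and -1.08.

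The members can be set beside unigenes chosen by the same limits with other cold patterns. The 109 unigenes at 2 or more in both stresses, without overlap with control in either and without those named in the study's text, had a median of 35.2 FPKM in drought, 30.6 FPKM in cold and 3.27 FPKM in control, and 4.59% of them had a mean control level under 0.1 FPKM, against 22.9% of the members. The 929 unigenes higher in cold only, chosen likewise, had a median of 1.0 FPKM in drought, 9.86 FPKM in cold and 0.67 FPKM in control, with 23.4% under 0.1 FPKM in control. The members had medians of 16.5 FPKM in drought, 1.25 FPKM in cold and 0.965 FPKM in control. These sets were also chosen on the same values and share the control libraries, and the differences between them were not tested.

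Stress genes were also listed by the words of their annotation, from the same parts. These lists are incomplete, and their counts stand beside the 0.725% of all tested unigenes that limma called higher in drought. Of the 7 LEA and dehydrin unigenes, 6 were tested and 4 were called higher in drought, with a median drought minus control difference of 5.23 and a median cold minus control difference of -0.11. The dehydrin DHN1 unigene c43682_g1, left out by name, had 2588 and 2134 FPKM in drought, 28.2 and 17.2 FPKM in cold, and 11.4 and 17.6 FPKM in control. The group 3 LEA unigene c52001_g1, the neighbour of c52001_g2, had 308 and 212 FPKM in drought, 0 and 0.71 FPKM in cold, and 1.0 and 1.98 FPKM in control. The remaining call, the dehydrin COR410 unigene c57549_g1, was higher in both stresses, with 1330 and 918 FPKM in drought, 262 and 160 FPKM in cold, and 46.5 and 41.4 FPKM in control. Among 39 tested aquaporins, the membrane channels for water, 3 were called higher. Of these, c56750_g3 and c35748_g1 met the numerical rule and c56624_g1 was higher in cold as well, with 94.7 and 116 FPKM in drought, 132 and 203 FPKM in cold, and 10.0 and 13.8 FPKM in control. Of 3 tested heat shock unigenes 2 were called higher in drought, both with lower values in cold than in control. c56552_g1, a small heat shock protein that keeps other proteins from clumping, had 154 and 171 FPKM in drought, 0.71 and 0.41 FPKM in cold, and 23.8 and 35.4 FPKM in control.

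For the other lists limma called few or no unigenes. Of 79 tested antioxidant unigenes 1 was called higher, the member c58993_g3, which is on that list only through the word ascorbate in its name. Of 35 tested stress transcription factors 0 were called higher and 1 lower, with 9 higher and 4 lower at an unadjusted p under 0.05. Among 14 tested starch unigenes, 3 tested phosphatase 2C and ABA unigenes and 2 tested osmolyte synthesis unigenes limma called 0, with 1 in each list higher at an unadjusted p under 0.05 and 0 lower. The medians of drought minus control were 0.04 for antioxidant, 0.08 for transcription factor, 0.16 for starch and 0.17 for aquaporin unigenes, against 0.01 over all tested unigenes. Over all lists 10 of 181 tested unigenes (5.53%) were called higher and 1 lower. Of the 181, 2 are members (1.1%, against 0.743% of all tested unigenes), and 4 more met the numerical rule and were left out by name. The 0 counts hold only for unigenes the lists matched. Called unigenes of the same classes lay outside them, such as c51930_g3 (DRE-binding protein 4, a stress transcription factor, at 4.26), c62592_g5 (beta-amylase, at 3.64), c57868_g1 (a protein phosphatase 2C, at 3.38), c63716_g5 (9-cis-epoxycarotenoid dioxygenase 1, an enzyme of ABA synthesis, at 4.46) and c60364_g1 (galactinol synthase, an enzyme of osmolyte synthesis, at 3.18), each given with its drought minus control difference and chosen after their values were seen. The study itself names 14 unigenes under ABA and water deprivation, chosen on these libraries and so no independent evidence. In this set 9 were called higher in drought and all 14 had a positive difference, with medians of 3.07 in drought and 0.70 in cold.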

How the data were processed

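The authors filtered paired-end Illumina HiSeq2500 reads of poly(A) RNA, assembled those of all samples with Trinity, mapped each sample with Bowtie 1.1.1, estimated reads per unigene with RSEM and deposited FPKM values rounded to 2 decimals, with no further scaling between libraries. The table holds no read counts, so no count model was run, and 0 of its sample columns were left unmatched. Here log2(FPKM + 1) of all 38769 unigenes whose mean reached 1 FPKM was fitted with limma 3.58.1 (R 4.3.3), 1 fit of 6 libraries with 3 residual and 2.86 prior degrees of freedom, a mean-variance trend and Benjamini-Hochberg adjustment over all tested unigenes. Errors are limma standard errors. On this scale the change of low unigenes is understated. Descriptive tables were computed with Python 3.11.15. The procedure was tested on simulated data.

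Members, gene lists and tests were chosen with earlier results of these data known. Lists were matched by words in the parts of the authors' annotation used here. The named members were the 12 with the widest drought difference, the 6 most abundant, all with a name and those of components with 3 members. Also named were those next to each limit and the 3 with the widest gap between drought libraries. The members c60424_g4, c52302_g1, c50227_g2, c52482_g4, c49565_g1, c60116_g3 and those of c57450 were added after their values were seen, as were the neighbours. Replicates were separate pools of seedlings, and whether they were treated separately is not stated, so p-values measure only the spread between these samples. Sequences were not analysed here. Alternatives were a pseudocount of 0.1, other filters, scalings and thresholds, a replicate block, no trend, separate fits and leaving out each library.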

Additional observations from a re-analysis of the deposited data

How the results depend on the processing

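Without a filter on low FPKM the rule gave the same 288 unigenes, and with at least 1 FPKM in 2 or more libraries 286 of them. Of the 288, 245 were among the 247 chosen after median-of-ratios scaling and 258 among 260 after quantile normalization. With a pseudocount of 0.1 the rule gave 417 unigenes, 194 of them members, and the members' median drought minus control difference was 3.80. Leaving out 1 library gave 275 to 467 unigenes, of which 246 to 260 were members. The number was 615 with a drought difference of at least 1.5, 93 with at least 3 and 168 with a cold window of 0.5.

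For the counts of calls under the alternatives, no share of all tested unigenes was computed. The 119 calls of limma in drought against control became 77 with a pseudocount of 0.1, 35 with a filter of at least 1 FPKM in 2 or more libraries (286 members tested), 75 without the trend and 256 at an adjusted p under 0.05. They became 0 with no filter (275 at an unadjusted p under 0.05), 0 in a separate fit of 4 libraries (276) and 0 in every fit without 1 library (241 to 276), fits with more unigenes or fewer libraries. The 159 calls in drought against cold became 13 with no filter, 89 in the separate fit, and 0 to 89 without 1 library, where 182 to 210 had an unadjusted p under 0.05. The 11 calls over the annotation lists became 5 with the filter of 1 FPKM in 2 or more libraries, 0 with no filter and 0 in every fit without 1 library. Of the 43 named members, 24 moved by more than the replicate SD with a pseudocount of 0.1, 4 with quantile normalization and 0 with median-of-ratios scaling. Leaving out drought-1 took 3 of them under the limit of 2, down to 0.098 in c85028_g1, and leaving out drought-2 took 6.

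Replicate numbers did not pair the samples: the correlation of replicate differences was 0.039 between drought and cold, -0.011 between drought and control and -0.032 between cold and control. With the replicate block limma called 65 members in drought against control and 116 in drought against cold.

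FPKM without counts gives no counting error, and values under 0.05 carry 1 digit at most.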

Other observations

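A few unigenes in the components of members were also higher in drought but lay outside the choice because they were lower in cold. They were picked after their values were seen. The plainest was c49565_g4, with 177 and 198 FPKM in drought, 0 and 0.38 FPKM in cold, and 3.37 and 5.06 FPKM in control, so it was higher in drought and lower in cold than in control. Its drought minus control difference was 5.20 and its cold minus control difference -2.13, with limma adjusted p of 0.000593 and 0.00253. The member of its component, c49565_g1, had 21.2 and 23.5 FPKM in drought, 0 and 0.68 FPKM in cold, and 0.18 and 0.31 FPKM in control. In component c60116 the unigene g4, given as a protein phosphatase 2C, had 116 and 121 FPKM in drought, 2.49 and 3.89 FPKM in cold, and 9.0 and 10.3 FPKM in control, while the member c60116_g3 had 53.8 and 43.7 FPKM in drought, 1.51 and 2.89 FPKM in cold, and 2.80 and 5.87 FPKM in control. Cold and control values overlapped in c49565_g1 and, by a narrow margin, in c60116_g3.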
